A study of Mus musculus with 282 samples.

Results

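A/J and C57BL/6J are classical inbred mouse strains, and they are the parents of the AXB and BXA recombinant inbred strains of the Hybrid Mouse Diversity Panel (HMDP). The comparison concerns the hypothalamus of 3 A/J and 3 C57BL/6J mice, 6 of the 282 mice of the series, chosen by their strain label. All 6 were male and were fed a high fat diet, which the paper describes as high in fat and sugar. No animal carried a transgene or a drug treatment according to the labels, and the labels give no age. Each mouse gave 1 mRNA library of the whole hypothalamus, and the design text calls the 3 mice of a strain biological replicates. Expression is given as FPKM, fragments per kilobase of transcript scaled to the mapped fragments of the library, for 14079 gene rows. A strain label stands for a whole genome, so that nothing in the comparison separates one locus from another.

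The hypothalamus senses nutrients and hormones such as leptin and insulin, and its neurons release peptides that set feeding, growth, reproduction and the water balance. C57BL/6J mice are widely used because they become obese on a high fat diet, and A/J mice are known to gain less weight on such a diet. The 2 strains are also known to carry different haplotypes of the major histocompatibility complex (MHC), and C57BL/6J carries an intragenic deletion in Nnt, the mitochondrial transhydrogenase. Recombinant inbred strains descend from crosses of both parents, and at each locus such a strain is expected to be homozygous for the allele of A/J or of C57BL/6J. The 18 AXB and BXA strains and the 23 other classical inbred strains are therefore set beside the parents as a description, without genotypes and without a test. The sample titles name AXB-18/PgnJ, AXB-19/PgnJ and AXB-20/PgnJ as AXB19a, AXB19 and AXB19b, so these may be closely related. Each is counted as a separate strain in all counts over the 18.

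Peptides of the labelled tissue were present in each library. Hcrt, or orexin, lay between 116.5 and 217.4 FPKM in the 6 mice, Pmch between 397.3 and 559.4, and Npy between 14.3 and 22.6. The locus that joins Agrp, the orexigenic peptide of the arcuate nucleus, with its neighbour Atp6v0d1 lay between 114.2 and 128.6 FPKM. The value of this locus does not separate Agrp from Atp6v0d1. Nkx2-1, a transcription factor of the developing hypothalamus, was at 4.38 to 5.11 FPKM in A/J and at 4.20 to 7.18 in C57BL/6J. The libraries nevertheless differed in the levels of markers of other tissues. Of the choroid plexus and the thalamus markers 0 passed the test. Of the 5 blood loci 1 did, Hba-a2, against 8.01% of all genes. Gh, growth hormone of the anterior pituitary, was at 44.5, 84.9 and 32.1 FPKM in the A/J mice and at 0.729, 0.395 and 0 in the C57BL/6J mice. Over the 6 measured pituitary markers the mean log2(FPKM + 1) ranged from 2.66 to 3.58 in A/J and from 0.51 to 0.70 in C57BL/6J and 0 of the 6 passed the test, where the difference of Gh was 5.24 ± 2.36 (SE, adjusted p = 0.183). In the 6 mice alone both Gh and Prl were called (adjusted p = 5.76e-04 and 0.00126). Ttr, the transthyretin of the choroid plexus, was at 1376 FPKM in C57BL/6J replicate 3 and between 2.81 and 29.6 in the other 5 mice, and the mean of the 5 choroid plexus markers ranged from 1.48 to 1.96 in A/J and from 2.11 to 4.98 in C57BL/6J. The 5 thalamus markers averaged 5.13 to 5.38 in A/J and 4.51 to 5.07 in C57BL/6J, and the 5 blood loci 2.71 to 2.98 against 3.51 to 3.70. Of these loci Hba-a2 differed most, by -2.52, and its near-identical copy Hba-a1 differed by 0.41. In whole tissue, fewer cells of a type and less RNA per cell cannot be told apart.

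**Figure D1:**
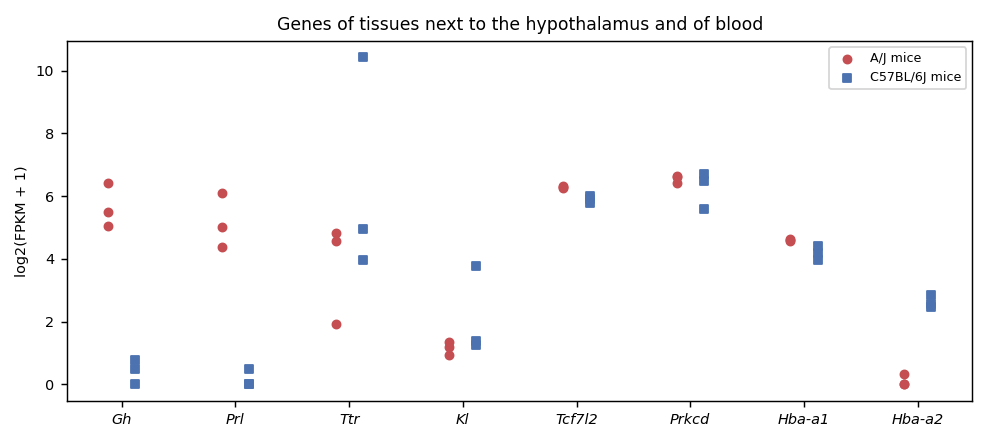
Level of 8 marker genes in each mouse as log2(FPKM + 1), with A/J mice as circles and C57BL/6J mice as squares (anterior pituitary Gh and Prl, choroid plexus Ttr and Kl, thalamus Tcf7l2 and Prkcd, blood Hba-a1 and Hba-a2). Gh and Prl are high in the 3 A/J mice, and Ttr is at 1376 FPKM in a single C57BL/6J mouse.

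In the test of A/J against C57BL/6J, a difference is the mean log2(FPKM + 1) of the 3 A/J mice minus that of the 3 C57BL/6J mice. It was tested by limma in 1 fit over 99 strains, with Benjamini-Hochberg adjustment over all gene rows. The SE of a difference therefore rests on the spread within all 99 strains, not on that of the 3 A/J and 3 C57BL/6J mice alone. A gene is called at an adjusted p under 0.05. Of 14079 genes 432 were called higher (3.07%) and 696 lower (4.94%) in A/J, together 8.01% of those tested. The median difference over all genes was -0.019. The values of the 3 A/J and the 3 C57BL/6J mice did not overlap in 4217 genes, 30.0% of all, among them 1105 of the called genes. Most called differences were small, with a median size of 0.54, and 112 genes in each direction exceeded 1 on the log2 scale. The scale understates the change of genes near 0 FPKM. Within a strain the libraries correlated across genes at 0.983 to 0.987 (Pearson's r of log2 values), and between the strains at 0.965 to 0.970.

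The genes with the highest differences were led by near-identical copies of abundant genes. Gm10260, a ribosomal protein S18 copy on chromosome 13, was at 75.6, 69.1 and 62.7 FPKM in A/J and was listed at 0 in the 3 C57BL/6J mice, with a difference of 6.13 ± 0.36 (SE, n = 3 per strain, adjusted p = 2.12e-36). Rps3a3, a copy of the ribosomal protein gene Rps3a1, was at 43.8, 54.5 and 49.9 FPKM against 0.122, 0.198 and 0.421 (5.34 ± 0.37, adjusted p = 1.39e-29). Both were chosen for the size of the difference and for the lack of overlap. Tuba1c, an alpha tubulin, was at 12.2 to 14.7 FPKM in A/J against 0.534 to 1.08, but with its near-identical copies summed the difference was -0.04 (adjusted p = 0.905). AA465934, a transcript without a known function, was at 32.6, 38.8 and 43.1 against 6.04, 4.69 and 5.003 FPKM, and Prss41, a serine protease gene, at 6.15, 6.15 and 3.91 against 0.176, 0.298 and 0.287. Neither had a near-identical copy among the measured loci. Further genes among the 15 highest were Gm5506, Rps3a2, Gm5900, Gm6472, AK157302, Gm9825, Gm1840, Gm5499 and Gm15564, with differences from 1.63 to 4.50. Gm9825 varied within A/J, with 1.17 FPKM in replicate 3 beside 13.5 and 8.24, and it was not called without A/J replicate 1 (1.44, adjusted p = 0.128). Gm15564 was not called without A/J replicate 1 or 3 or C57BL/6J replicate 1 or 2, with adjusted p values from 0.0608 to 0.157.

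Among the 15 lowest differences were several genes with a known function. Pttg1, the mitotic securin, was at 1.57, 0.967 and 0.969 FPKM in A/J against 35.4, 30.1 and 35.1 in C57BL/6J, 28.7 times lower (-4.00 ± 0.31, adjusted p = 4.84e-25). Tekt5, a tektin of ciliary and flagellar microtubules, was at 0.620, 0.328 and 0.544 against 9.41, 7.77 and 8.05 FPKM (-2.65 ± 0.17, adjusted p = 2.62e-32). Tnni1, the slow skeletal troponin I, was at 0.205 to 0.271 against 5.41 to 8.19 FPKM, and Myoc, the secreted protein myocilin, at 0.0683 to 0.495 against 5.06 to 5.72. None of these groups overlapped, since the genes were chosen without overlap. Chchd2, a mitochondrial protein, was at 51.9, 49.2 and 44.2 FPKM against 198, 220 and 188, 4.17 times lower. Rpl26 and Rpl29, proteins of the large ribosomal subunit, were at 52.3 to 65.9 against 248.7 to 298.2 FPKM and at 7.21 to 10.8 against 38.1 to 49.1. Zbed3, a zinc finger protein that binds axin, was at 3.52, 3.58 and 3.24 against 15.01, 19.9 and 15.8 FPKM. The largest fall on the log2 scale was that of Gm4076, from 130 to 141 FPKM in C57BL/6J to at most 0.0622 in A/J. Its standard error of 1.33 was the largest of the set, but it reflects the spread within all strains of the fit. In the 6 mice alone the limma adjusted p of Gm4076 was 1.06e-07. Mageh1, a MAGE family gene of the X chromosome, had 3.23 FPKM in A/J replicate 2 and at most 0.00235 in the others, against 9.71, 22.6 and 11.1. The pseudogenes Pisd-ps1, Pisd-ps2 and Gm10709, the haemoglobin gene Hba-a2 and the MHC gene H2-T22 complete the 15.

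**Figure D2:**
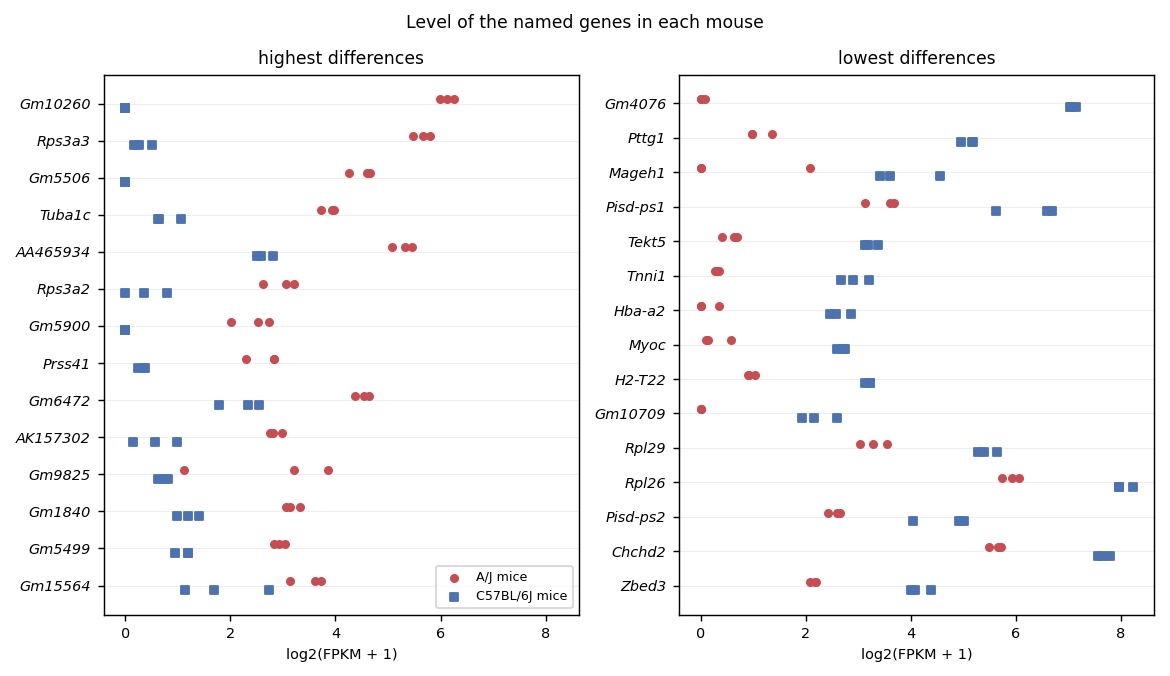
Level of the named genes with the highest and the lowest differences in each mouse as log2(FPKM + 1), with A/J mice as circles and C57BL/6J mice as squares. In each row the 3 mice of a strain lie on the same side, since genes were chosen without overlap, and Gm9825, Mageh1 and Gm15564 show the widest spread within a strain.

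Genes with a near-identical copy elsewhere in the genome were frequent among the large differences. A copy was counted where the GENCODE M21 transcripts of 2 measured loci aligned with at least 90% identity over at least 150 nucleotides and 60% of the shorter transcript. Such copies existed for 435 of the 14079 genes (3.09%) and for 99 of the called genes (8.78%). The share rose with the size of the difference, from 2.82% of the 496 called genes with a difference of at most 0.5 to 6.37% between 0.5 and 1, 20.4% between 1 and 2 and 43.9% of the 57 genes above 2. It was 12 of the 15 genes with the highest and 6 of the 15 with the lowest differences. The alignment of reads used the mm10 genome, which is the sequence of C57BL/6J, for the mice of all strains. The part of sequence differences between A/J and that genome in these values was not tested.

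Of 29 pairs of copies with both loci called, 23 pairs were called in opposite directions and 6 in the same direction. In 17 of the 23 a protein-coding gene was lower and a pseudogene higher in A/J, and the reverse was found in 0 pairs. Both loci were protein-coding in 4 pairs and both were pseudogenes in 1. The clearest pair was Atp6v0c, the proteolipid subunit of the vacuolar ATPase on chromosome 17, and its processed pseudogene Atp6v0c-ps2 on chromosome 6. Atp6v0c was at 52.8, 52.9 and 48.9 FPKM in A/J and at 182.4, 170.6 and 169.3 in C57BL/6J (-1.74, adjusted p = 3.20e-19). Atp6v0c-ps2 was at 121, 117 and 106 FPKM against 14.2, 8.85 and 7.78 (3.4, adjusted p = 9.62e-26). The sum of Atp6v0c and its copy was 173.5, 169.9 and 154.7 FPKM against 196.6, 179.4 and 177.1, a difference of -0.15 ± 0.13 (SE) that did not pass the test (adjusted p = 0.565). For Rps18 and Gm10260 the values were 60.9, 59.8 and 52.0 against 108.5, 105.6 and 108.3 FPKM for Rps18, and the sum differed by 0.23 ± 0.18 (adjusted p = 0.518). Since reads of such copies can be divided between loci by the counting, the values of the single loci are uncertain.

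How close these copies are is shown by the coding sequence of the parent genes, in GENCODE M21 on GRCm38. Over the aligned coding sequence Atp6v0c-ps2 differs from Atp6v0c by 1 of 465 nucleotides (T111C, counted from 1 at the first base of the start codon of the parent, whose base stands first). Rps3a3 differs from Rps3a1 by 9 nucleotides at an identity of 98.87%, and Gm10260 from Rps18 by 4 of 459. A stretch of 150 nucleotides is given for each pair, to show how far apart the differing bases lie, on the strand of the transcript, 5′ to 3′, with the differing bases in capitals. The pair of Atp6v0c, spliced from chr17:24164777-24169249, and its pseudogene at chr6:37806121-37806270 reads as follows.
Atp6v0c: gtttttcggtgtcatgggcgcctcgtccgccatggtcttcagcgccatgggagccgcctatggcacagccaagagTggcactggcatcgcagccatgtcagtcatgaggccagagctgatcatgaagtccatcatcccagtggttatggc
Atp6v0c-ps2: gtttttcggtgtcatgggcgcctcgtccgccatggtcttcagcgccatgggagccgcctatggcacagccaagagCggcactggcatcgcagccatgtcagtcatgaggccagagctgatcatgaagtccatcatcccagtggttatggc
Rps3a1, spliced from chr3:86138490-86139086, and Rps3a3 at chr13:108671119-108671268 differ at T534C, G582T and A660G in this stretch.
Rps3a1: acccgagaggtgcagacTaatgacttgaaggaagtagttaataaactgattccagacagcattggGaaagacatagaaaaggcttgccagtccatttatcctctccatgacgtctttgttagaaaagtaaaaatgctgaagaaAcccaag
Rps3a3: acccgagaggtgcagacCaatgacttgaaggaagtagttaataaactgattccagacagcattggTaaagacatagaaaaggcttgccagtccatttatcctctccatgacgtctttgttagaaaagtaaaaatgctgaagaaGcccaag
Rps18, spliced from chr17:33952048-33952299, and Gm10260 at chr13:97760135-97760284 differ at A337C, G371A and G431A.
Rps18: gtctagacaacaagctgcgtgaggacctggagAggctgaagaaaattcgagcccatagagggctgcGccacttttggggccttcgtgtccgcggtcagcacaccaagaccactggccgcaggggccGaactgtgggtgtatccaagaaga
Gm10260: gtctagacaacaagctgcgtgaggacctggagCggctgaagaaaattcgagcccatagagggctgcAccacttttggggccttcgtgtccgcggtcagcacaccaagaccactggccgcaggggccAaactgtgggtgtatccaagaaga
Outside these positions the stretches of a pair are identical.

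Not every opposite pair cancelled. Summed over the copies, 10 of the 21 groups of loci were called lower and 0 higher in A/J, and the median size of the group differences was 0.32, against 1.28 for the single loci of these pairs. Eno1, the glycolytic enolase, was at 93.2, 90.6 and 76.2 FPKM against 208.7, 216.5 and 209.6, and its copy Gm5506, annotated as Eno1b in M21, added 23.1, 24.3 and 18.1 FPKM in A/J and 0 in C57BL/6J. With the copies summed the difference of this group was -0.91 ± 0.15 (adjusted p = 7.99e-07). Rplp1, a protein of the ribosomal stalk, was at 580, 470 and 405 against 1079, 887 and 956 FPKM, and its sum differed by -0.93 ± 0.22. Coq2, an enzyme of ubiquinone synthesis, was at 15.98, 14.4 and 12.4 against 27.8, 30.4 and 25.8 FPKM, and its sum fell by 0.87. Rnps1, an RNA-binding protein of the exon junction complex, Isca1, an iron-sulfur cluster assembly factor, and Chp1, a calcineurin-like calcium sensor, were also lower in sum, by 0.75, 0.33 and 0.31.

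**Figure D3:**
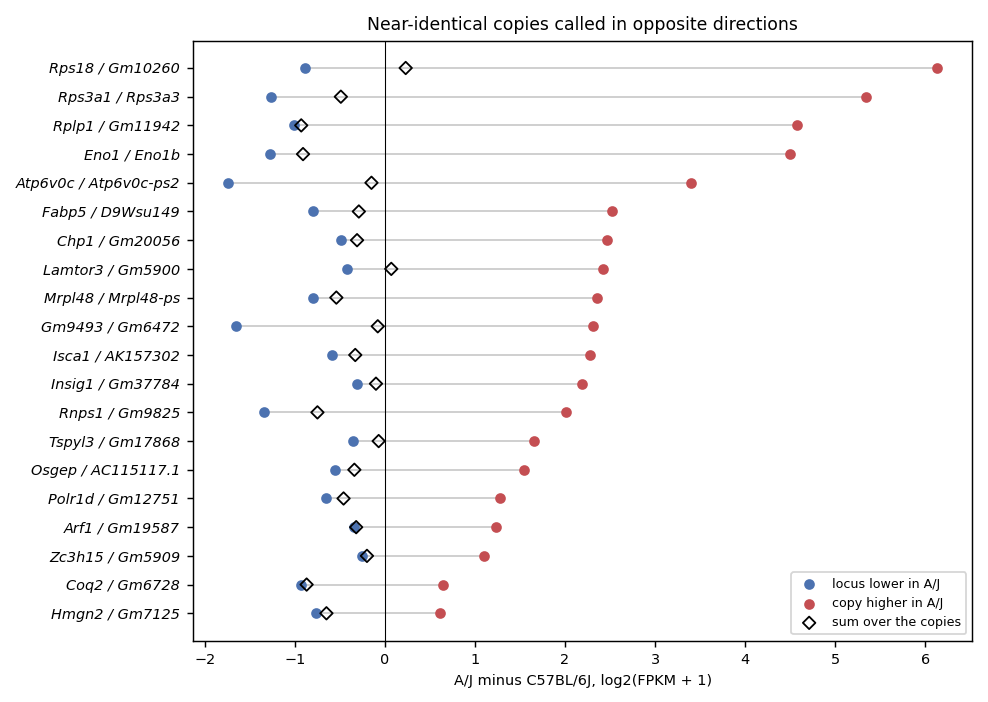
Difference of A/J minus C57BL/6J on log2(FPKM + 1) for the reported near-identical copies called in opposite directions, with the locus lower in A/J, its highest copy, and the sum over all copies of the group (diamond). The single loci spread from -1.74 to 6.13, and the sums lie between -0.93 and 0.23.

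At several of these pairs the AXB and BXA strain means fell onto 2 levels. For Gm10260, 8 of the 18 strain means lay between 54.5 and 74.4 FPKM and the other 10 at or under 0.419. Rps3a3 was at 45.6 to 56.6 FPKM in 5 strains and at most at 0.975 in the other 13. The ranges of the 2 sides nearly met for Gm9825, at 5.85 to 13.3 and 0.0117 to 4.83 FPKM. For 12 of the 23 opposite pairs all 18 strains lay on the same side of the midpoint between the parents for both loci of the pair, and for 22 pairs at least 16 strains did, with Zc3h15 and its copy the exception at 8 of 18. In 22 of the 23 pairs the 2 loci are on different chromosomes. Here and below, the side of a strain was taken from its mean log2(FPKM + 1), whereas the ranges are of mean FPKM.

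Some genes without a measured copy fell onto 2 levels as well, while for Myoc (0.188 to 1.73 and 1.92 to 6.68 FPKM on the sides of A/J and C57BL/6J) and Mageh1 (1.86 to 4.62 and 5.099 to 14.45) the ranges of the 2 sides nearly met. Rpl26 was at 43.6 to 79.1 FPKM in 11 AXB and BXA strains and at 240 to 301 in the other 7, with no strain between. For Pttg1, 11 strains lay between 0.485 and 1.45 FPKM and 7 between 27.1 and 35.1. Tekt5 was at 0.578 to 1.10 in 7 strains and at 7.42 to 10.1 in 11, and Chchd2 at 46.2 to 59.4 in 14 strains and at 188 to 238 in 4. Over the called genes a median of 8 of the 18 strains lay nearer to A/J, and 784 genes (69.5%) had 6 to 12 strains nearer to A/J. Strain means that vary around the midpoint without 2 levels would also divide between the sides. The same count was not made over all genes, so no conclusion is drawn from it. The 23 other inbred strains divided differently from gene to gene. They lay nearer to A/J in 21 cases for Pttg1, 19 for Tnni1, 13 for Rpl26, 4 for Chchd2 and 3 for Tekt5, and A/J had the lowest Tekt5 mean of all 99 strains.

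In a small set of called genes 1 parent stood apart from the other strains, and these genes were chosen after their values had been seen. All 18 AXB and BXA means were nearer to A/J for 6 genes, and the 23 other inbred means as well for 5 of them. Wdfy1, an adaptor of Toll-like receptor signalling in endosomes, was at 16.1, 18.2 and 17.7 FPKM in A/J and at 4.77, 5.43 and 5.53 in C57BL/6J (1.56 ± 0.09, adjusted p = 1.03e-37). Its means lay between 15.8 and 18 FPKM in the AXB and BXA strains and between 16 and 19.5 in the other inbred strains, so that C57BL/6J lay below each of these strains. Nnt, which transfers reducing equivalents from NADH to NADP in mitochondria, was at 11.03, 11.4 and 9.28 FPKM against 5.997, 5.95 and 6.05 (0.72 ± 0.08, adjusted p = 1.19e-13), with AXB and BXA means between 9.75 and 12.03 and other inbred means between 8.13 and 12.2. Over all 97 other strains of the panel, 82 were nearer to A/J for Wdfy1 and 79 for Nnt. The locus that joins Gabra2 and Gabrg1, neighbouring subunits of the GABA-A receptor, was at 48.7, 54.4 and 51.1 FPKM against 35.4, 35.0 and 32.5, with 44.8 to 59.5 in the AXB and BXA strains. Zbed3 had its highest mean of the 99 strains in C57BL/6J, and the 18 AXB and BXA means lay between 3.399 and 10.9 FPKM. On the FPKM scale the highest of these was nearer to C57BL/6J (mean 16.9) than to A/J (3.45), because sides were taken from means of log2(FPKM + 1). The sides of the other inbred strains overlapped in FPKM, at 3.3 to 10.07 for 22 of 23 strains and 8.376 for the remaining strain.

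Ndn and Lpcat3 had the same arrangement with weaker tests. Ndn, or necdin, an imprinted gene of the Prader-Willi region, was at 320, 329 and 316 FPKM in A/J and at 277.8, 218 and 197 in C57BL/6J, the lowest mean of the 99 strains (adjusted p = 0.00689, and 0.113 at most over the alternatives). Lpcat3, a phospholipid acyltransferase, was at 9.85, 6.71 and 7.49 against 10.01, 14.7 and 13.8 FPKM (adjusted p = 0.0204, and 0.154 at most). C57BL/6J had the highest mean of the strains for Lpcat3, but its replicate 1 lay close to A/J replicate 1.

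A/J stood apart for Nnat, or neuronatin, an imprinted gene expressed in the developing and adult brain. It was at 101, 99.7 and 75.6 FPKM in the A/J mice and at 298.2, 229.1 and 258.9 in the C57BL/6J mice (-1.50 ± 0.21, adjusted p = 9.01e-10, and 0.00265 at most over the alternatives). The AXB and BXA means lay between 204 and 401 FPKM and the other inbred means between 190 and 392, and 0 of the 97 other strains was nearer to A/J. Rab11fip5, which links Rab11 to recycling endosomes, was called higher at 30.5, 26.6 and 284 FPKM against 24.1, 23.3 and 25.0, and so rested on A/J replicate 3 alone. Without that mouse the difference of Rab11fip5 was not called (adjusted p = 0.599), nor was it in the 6 mice alone (adjusted p = 0.400). In all, the 18 AXB and BXA means were nearer to C57BL/6J for 7 called genes, with Hist1h1c, Nek1 and Nfrkb and the loci XLOC_009345 and XLOC_029403 beside Nnat and Rab11fip5. XLOC_009345 was at 2.71, 41.3 and 2.47 FPKM in A/J against 2.95 to 3.02, and so rested on A/J replicate 2.

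**Figure D4:**
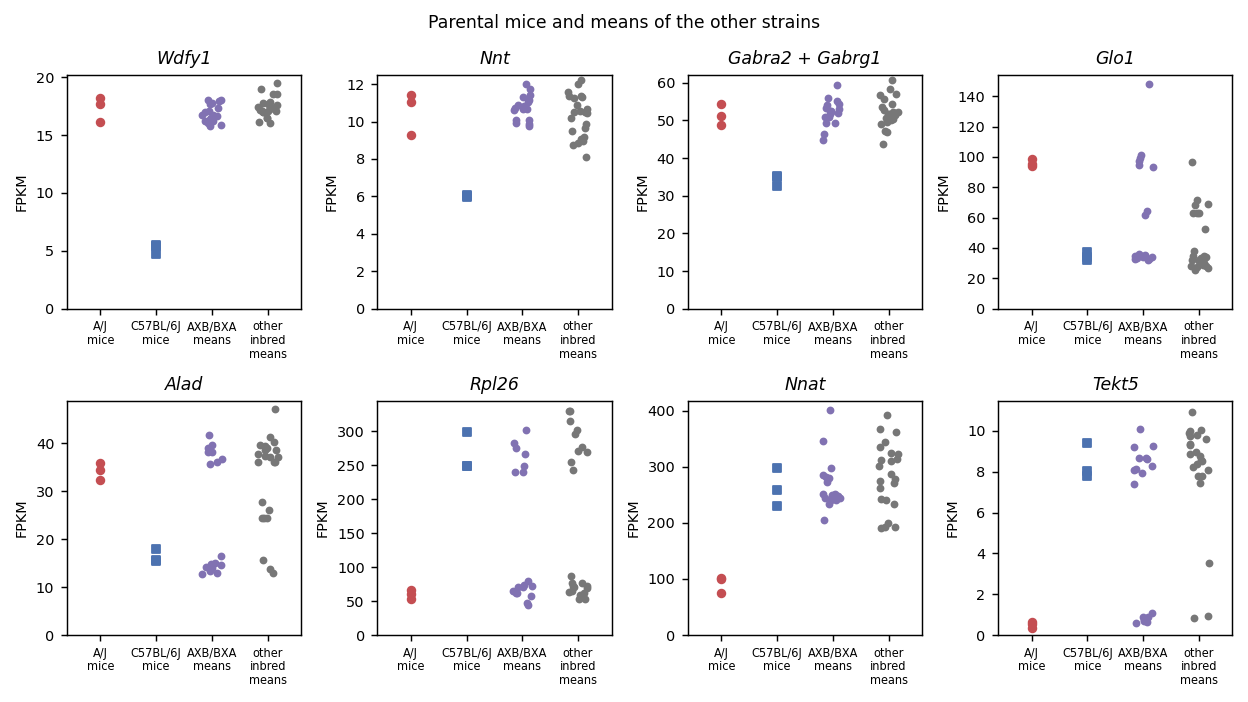
FPKM of 8 genes in the A/J and C57BL/6J mice (1 point per mouse) and in the AXB and BXA and the other inbred strains (1 point per strain mean). Of the strains drawn, C57BL/6J is lowest for Wdfy1, Nnt and the locus of Gabra2 and Gabrg1, A/J is lowest for Nnat, and the AXB and BXA means fall onto 2 levels for Alad, Rpl26 and Tekt5.

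Loci with strain variants known from other work were chosen as a list for that reason. Of 10 measured members 6 were called higher and 0 lower in A/J, against 3.07% and 4.94% of all genes. The median difference was 0.61, against -0.019 over all genes. Glo1, the glyoxalase that detoxifies methylglyoxal, was at 93.8, 98.6 and 95.4 FPKM in A/J and at 31.8, 37.5 and 34.3 in C57BL/6J, 2.78 times higher (1.45 ± 0.13, adjusted p = 4.21e-19). Its neighbour on chromosome 17, Btbd9, was at 17.98, 18.4 and 18.3 against 10.9, 11.5 and 11.5 FPKM. Both genes lie in a region whose copy number is known to differ among strains. The AXB and BXA means of Glo1 were at 31.9 to 35.7 FPKM in 10 strains and between 61.6 and 148 in 8, with the highest in BXA-12/PgnJ, and 17 of the 18 strains lay on the same side for Btbd9. On chromosome 4, Alad, an enzyme of haem synthesis, was at 35.9, 34.4 and 32.3 against 15.6, 17.9 and 15.5 FPKM (1.03 ± 0.18, adjusted p = 1.56e-06), and its neighbour Hdhd3 at 9.36, 6.65 and 7.86 against 1.92, 2.50 and 2.24. All 18 AXB and BXA strains and the 23 other inbred strains lay on the same side for both genes. The test did not call Ahr (1.31 to 2.11 FPKM against 0.962 to 1.89), the citrate synthase gene Cs (73.0 to 80.2 against 74.7 to 79.4), Hbb-bs (75.5 to 91.0 against 97.7 to 99.4) or Hbb-bt (2.02 to 4.15 against 6.12 to 7.93, adjusted p = 0.0794). With the marker levels of blood and the other tissues as covariates, Hbb-bs was called higher in A/J, with a difference of 0.63 against -0.23 without them. Hbb-bs is itself part of the blood level, so no conclusion is drawn from that call.

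The calls among MHC and antigen presentation genes were lower in A/J. MHC class I molecules present peptides to T cells with beta-2 microglobulin as their light chain, and class Ib genes such as H2-T22 and H2-Q2 lie in the same complex. Of 17 measured loci, 5 were called lower and 0 higher, against 8.01% of all genes called, with a median difference of -0.47. H2-T22 was at 1.04, 0.895 and 0.870 FPKM in A/J and at 8.31, 8.38 and 7.77 in C57BL/6J (-2.24 ± 0.20, adjusted p = 1.10e-20). H2-K1, a classical class I gene, was at 4.85, 4.45 and 5.07 against 16.2, 14.5 and 13.1 FPKM (-1.43 ± 0.30, adjusted p = 1.52e-04). B2m, the light chain, which lies outside the complex on chromosome 2, was at 33.4, 36.0 and 38.9 against 66.5, 68.1 and 67.8 FPKM (-0.89 ± 0.23, adjusted p = 0.00361). The groups did not overlap in any of the 5, which also include H2-Q2 and H2-T24. This does not set them apart, since of the 432 higher and 696 lower called genes 1105 did not overlap. H2-D1 was at 14.5 to 15.99 against 19.4 to 20.6 FPKM and was not called (adjusted p = 0.354), but it was in the 6 mice alone (adjusted p = 0.0308). H2-K1 has near-identical copies in H2-D1 and H2-Q4, and its call was lost with the copies summed, while the class II genes H2-Aa and H2-Ab1 lay at or under 2.02 FPKM. H2-T22 and H2-Q2 had the same 8 AXB and BXA strains nearer to A/J, whereas H2-K1 and B2m had 2 each. In the other inbred strains H2-T22 and H2-Q2 lay on the same side in only 6 of 23.

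Complement and microglia genes differed unequally. Of 14 microglia loci, 3 were called lower and 1 higher, against 8.01% of all genes called, and the median of the list was -0.06. The chains of C1q, the first component of the classical complement pathway, are encoded side by side on chromosome 4 and are made by microglia in the brain. C1qb was at 9.95, 6.93 and 4.88 FPKM in A/J and at 21.6, 19.8 and 23.4 in C57BL/6J (-1.49 ± 0.22, adjusted p = 9.14e-09), and C1qc at 12.3, 10.9 and 9.39 against 26.0, 22.4 and 22.7 (-1.06 ± 0.19, adjusted p = 9.17e-06). C1qa was at 13.1 to 15.04 against 19.5 to 22.6 and missed the threshold (adjusted p = 0.0539). Csf1r, the receptor that microglia need to survive, was higher at 20.1, 17.8 and 17.4 against 12.01, 15.6 and 14.6 FPKM (0.37 ± 0.11, adjusted p = 0.0186), and Itgam was called lower at 2.48 to 3.17 against 3.08 to 5.64, where the groups overlapped. Csf1r was not called without A/J replicate 1 or C57BL/6J replicate 1 (adjusted p = 0.140 and 0.243), and Itgam without C57BL/6J replicate 2 or 3 or any 1 of the A/J mice (0.0512 to 0.337). Cx3cr1, a defining microglia gene, was at 10.6 to 12.1 against 9.61 to 10.8 FPKM and was not called (adjusted p = 0.403). The locus of Aif1, Lst1 and Prrc2a lay at 89.2 to 97.7 against 102 to 119 FPKM. C1qb had 2 and C1qc 3 of the 18 AXB and BXA strains nearer to A/J, and 15 and 17 of the 23 other inbred strains. Of the 12 complement and inflammation genes, C3, Clu and Serpina3n were called lower and 0 higher, against 4.94% and 3.07% of all genes. Clu, the chaperone clusterin, was at 349, 333 and 361 FPKM against 467, 435 and 482, and Serpina3n, an acute phase protease inhibitor of reactive astrocytes, at 15.02, 15.8 and 15.03 against 24.3, 20.02 and 23.3, which was not called without C57BL/6J replicate 1 (adjusted p = 0.0740). C3 (0.668 to 1.12 against 2.05 to 2.54 FPKM) and Clu were not called with the marker levels as covariates (adjusted p = 0.140 and 0.0640), and C4a was not called at all (0.804 to 1.72 against 0.914 to 1.44). Of 12 interferon-stimulated genes 1 was called lower and 1 higher, against 4.94% and 3.07% of all genes. Ifit3 was lower at 0.704 to 1.09 against 2.83 to 4.94 FPKM, and Stat2, a transcription factor of the interferon response, was higher at 6.95 to 7.34 against 4.95 to 5.77. Ifit3 stayed called with its near-identical copy I830012O16Rik added (-1.06, adjusted p = 7.05e-04). Stat2 was not called without A/J replicate 1, 2 or 3 or C57BL/6J replicate 1 or 3 (adjusted p = 0.0510 to 0.207), and C3 was not called without any 1 of the 6 mice (0.0524 to 0.147).

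Hypothalamic peptides and their receptors showed few calls. Of 29 measured neuropeptide loci 0 were called higher and 1 lower (3.45%, under the 8.01% of all genes), and 10 did not overlap between the strains, against 30.0% of all genes. The called member was Sst, somatostatin, which inhibits growth hormone release, at 121, 143 and 106 FPKM in A/J and 218.8, 173.5 and 166.4 in C57BL/6J (-0.59 ± 0.20, adjusted p = 0.0436). It was not called with the marker levels as covariates (adjusted p = 0.374) or without A/J replicate 1 or 3 or C57BL/6J replicate 1 or 2 (0.0657 to 0.259). Pomc, the precursor of melanocortins and of corticotropin, had the largest difference of the list, 1.47. It was at 92.3, 170 and 21.4 FPKM against 31.5, 21.4 and 22 (adjusted p = 0.669). The order of Pomc over the A/J mice was that of Gh, but A/J replicate 3 was no higher than the C57BL/6J mice. A relation of Pomc to Gh was not tested. Hcrt was at 117 to 131 against 155 to 217 and Pmch at 485.3 to 559.4 against 397 to 430 FPKM, neither of them called. In leptin, insulin and energy balance signalling 1 of 24 genes was called, against 8.01% of all genes. It was Npy2r, an inhibitory receptor for neuropeptide Y and peptide YY, at 5.81, 4.93 and 4.97 against 8.64, 7.79 and 7.16 FPKM (-0.51 ± 0.16, adjusted p = 0.0284). Npy2r was not called without A/J replicate 2 or 3 or C57BL/6J replicate 1 or 2 (adjusted p = 0.0679 to 0.151). Lepr lay at 1.23 to 1.79 against 0.950 to 2.06 and Insr at 9.75 to 10.6 against 9.18 to 10.3 FPKM, neither called.

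Of 13 loci of GABA-A receptor subunits 1 was called higher and 2 lower, against 8.01% of all genes called. Beside the locus of Gabra2 and Gabrg1, Gabra5 was at 14.1, 14.02 and 16.2 FPKM against 23.2, 17.9 and 20.4 (-0.44 ± 0.13, adjusted p = 0.0163), and Gabrg3, its neighbour on chromosome 7, at 5.76, 6.33 and 5.87 against 7.72, 7.87 and 7.28 (-0.30 ± 0.10, adjusted p = 0.0443). In the 6 mice alone neither Gabra5 nor Gabrg3 was called (adjusted p = 0.0756 and 0.0621). Gabra5 was not called without A/J replicate 1 or 2 or C57BL/6J replicate 1 (0.0742 to 0.167), and Gabrg3 without any 1 of the 6 mice (0.0569 to 0.147). Of the 22 glutamate receptor genes 0 were called in either direction, with Gria1 at 69.7 to 75.5 against 85.3 to 86.7 FPKM and Gria2 at 63.1 to 65.1 against 56.9 to 61.5. The 13 genes of neuron classes gave 0 calls as well. Slc17a6, the glutamate transporter of hypothalamic excitatory neurons, was at 113.6 ± 4.97 against 93.2 ± 11.02 FPKM (mean ± SD, n = 3), and Slc32a1, the vesicular GABA transporter, at 39.2 to 50.8 against 52.1 to 68.3 FPKM.

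Of 18 hypothalamic transcription factor loci 3 were called lower and 0 higher, against 4.94% and 3.07% of all genes, with a median of -0.27. The locus of Dlx1, a homeobox factor of GABAergic neurons, and Metap1d was at 13.2, 16.7 and 14.5 FPKM against 30.1, 29.7 and 25.8 (-0.91 ± 0.16, adjusted p = 6.31e-06). Meis2 was at 6.19, 8.15 and 7.45 against 18.6, 14.9 and 13.3 (-1.0 ± 0.31, adjusted p = 0.0232), and Isl1, which specifies arcuate neurons, at 4.60, 6.14 and 6.77 against 9.97, 7.99 and 11.2 (-0.65 ± 0.19, adjusted p = 0.0123). The groups were separate in each, as they were in 1105 of the 432 higher and 696 lower called genes. Isl1 and Meis2 are also expressed by neurons of the neighbouring striatum, whose 4 measured markers averaged 2.76 to 2.94 in A/J and 2.87 to 3.21 in C57BL/6J on the log2 scale. With the marker levels as covariates the adjusted p of Isl1 was 0.0589 and that of Meis2 0.0388. Isl1 was not called without A/J replicate 1 or C57BL/6J replicate 1 or 3 (0.0545 to 0.143), and Meis2 without A/J replicate 1 or 3 or C57BL/6J replicate 1 or 2 (0.0528 to 0.138). Nkx2-2 lay at 3.97 to 5.13 against 5.70 to 6.84 FPKM and was not called.

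Markers of oligodendrocytes, of astrocytes and of the ventricle wall were lower or did not pass the test. Of 15 oligodendrocyte genes Olig1 and Sox10, transcription factors of the lineage, were called lower and 0 higher, against 4.94% and 3.07% of all genes. Olig1 was at 50.4, 43.8 and 40.3 against 78.2, 64.5 and 61.5 FPKM and Sox10 at 16.4, 14.3 and 16.4 against 24.7, 22.3 and 25.4. Olig1 was not called without A/J replicate 3 or C57BL/6J replicate 1 (adjusted p = 0.0631 and 0.0913). The myelin gene Mbp, at 1159 to 1367 against 1247 to 1344 FPKM, overlapped between the strains. The 10 astrocyte genes gave 0 calls, and 8 of them did not overlap, against 30.0% of all genes. Gfap, the filament protein of astrocytes, was at 39.5, 45.6 and 47.9 against 68.2, 63.97 and 68.7 FPKM (adjusted p = 0.0568, and 0.0169 in the 6 mice alone), and Aqp4, the water channel of their endfeet, at 27.1 to 29.5 against 30.6 to 37.1. Of 10 tanycyte and ependymal genes, Foxj1, the master regulator of motile cilia, Ccdc153 and Rarres2 were called lower, against 4.94% of all genes. Rarres2 was at 13.3, 12.2 and 14.7 against 21.9, 23.8 and 23.8 FPKM. With the marker levels as covariates the adjusted p was 0.401 for Foxj1, 0.200 for Ccdc153 and 0.192 for Rarres2. Foxj1 and Ccdc153 were also not called without A/J replicate 1 or C57BL/6J replicate 1 or 3, nor Foxj1 without A/J replicate 3 (0.0545 to 0.295) and Ccdc153 and Rarres2 without A/J replicate 2 (0.0618 and 0.0518). Vim, at 21.5 to 23.1 against 25.7 to 28.9 FPKM, was not called with or without these covariates. Ly6a, a surface protein of endothelial cells known to differ between strains, was at 6.09, 4.08 and 5.41 against 17.2, 17.1 and 17.8 FPKM (-1.58 ± 0.23, adjusted p = 1.58e-08). It was the only call among 10 endothelial genes, against 8.01% of all genes called. Cldn5 was at 10.7 to 14.8 against 14.7 to 18.6 and Flt1 at 8.94 to 10.3 against 10.2 to 11.1 FPKM.

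Metabolic and stress genes were called in single members. Of 24 glutathione and redox genes 3 were called lower and 1 higher, against 8.01% of all genes called. Prdx6, a peroxiredoxin that also has phospholipase activity, was at 77.7, 79.5 and 82.2 FPKM against 105, 111 and 102 (-0.41 ± 0.08, adjusted p = 2.11e-05), Gstm1, a glutathione transferase, at 103, 97.7 and 89.3 against 141, 122 and 119, and catalase, Cat, at 18.9, 16.3 and 17.6 against 21.8, 22.6 and 22.8. Gsr, the glutathione reductase, was higher at 15.5, 15.6 and 18.5 against 12.4, 10.4 and 9.19 FPKM (0.60 ± 0.16, adjusted p = 0.00670). Gsr was not called without A/J replicate 3 or C57BL/6J replicate 3 (adjusted p = 0.0696 and 0.0755), and Cat without A/J replicate 2 or 3 or any 1 of the C57BL/6J mice (0.0768 to 0.201). Gstm1 was not called in the 6 mice alone (0.0716). Gsta4 was at 24.8 to 34.1 against 30.2 to 35.3 and was not called. Of 20 genes of cholesterol and fatty acid synthesis 1 was called, against 8.01% of all genes. Insig1, which retains the sterol sensor in the endoplasmic reticulum, was lower at 24.2 to 25.7 against 30.0 to 32.5 FPKM. With its near-identical copy summed the difference was -0.10 (adjusted p = 0.540), and Insig1 was not called without C57BL/6J replicate 1 (0.0619). Hmgcs1 lay at 75.5 to 78.1 against 72.8 to 74.7 FPKM.

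Of 8 glucocorticoid-responsive genes 1 was called lower and 1 higher, against 4.94% and 3.07% of all genes. Mt2, a metallothionein, was lower at 133.8 ± 9.93 against 231.2 ± 25.5 FPKM (mean ± SD, n = 3) and Pdk4, an inhibitor of pyruvate oxidation, was higher at 3.14 to 4.26 against 1.86 to 2.62. Neither Mt2 nor Pdk4 was called with the marker levels as covariates (adjusted p = 0.165 and 0.0642), nor without C57BL/6J replicate 1 or A/J replicate 3 (0.0616 to 0.253). Mt2 was also not called without A/J replicate 1 or C57BL/6J replicate 3 (0.0890 and 0.0516), and Pdk4 without C57BL/6J replicate 2 (0.101). Of the other members, Fkbp5 (7.52 to 8.19 against 8.03 to 8.80) and Sgk1 (14.1 to 24.01 against 9.40 to 15.5) were not called. Hsp90aa1, a cytosolic chaperone, was the only call among 8 heat shock loci, against 8.01% of all genes called. It was at 325 to 378.1 against 460.2 to 570.5 FPKM, and it was not called without A/J replicate 2 or C57BL/6J replicate 2 (adjusted p = 0.0961 and 0.141) or after quantile normalization (0.366). Hspa1a was at 0.678 to 1.11 against 0.691 to 0.894 and the locus of Hspa1b at 12.3 to 13.4 against 10.8 to 14.8. The 15 clock genes gave 0 calls, with Arntl at 8.20 to 9.61 against 7.72 to 7.996 and Clock at 10.5 to 12.6 against 9.30 to 9.54 FPKM. Fos, an immediate early gene of neuronal activity, was at 9.66, 12.7 and 14.8 against 2.57, 3.17 and 9.01 FPKM and did not pass the test (1.32 ± 0.48, adjusted p = 0.0723), but was called without C57BL/6J replicate 3 (1.78, adjusted p = 0.0226). The 11 immediate early genes gave 0 calls.

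**Figure D5:**
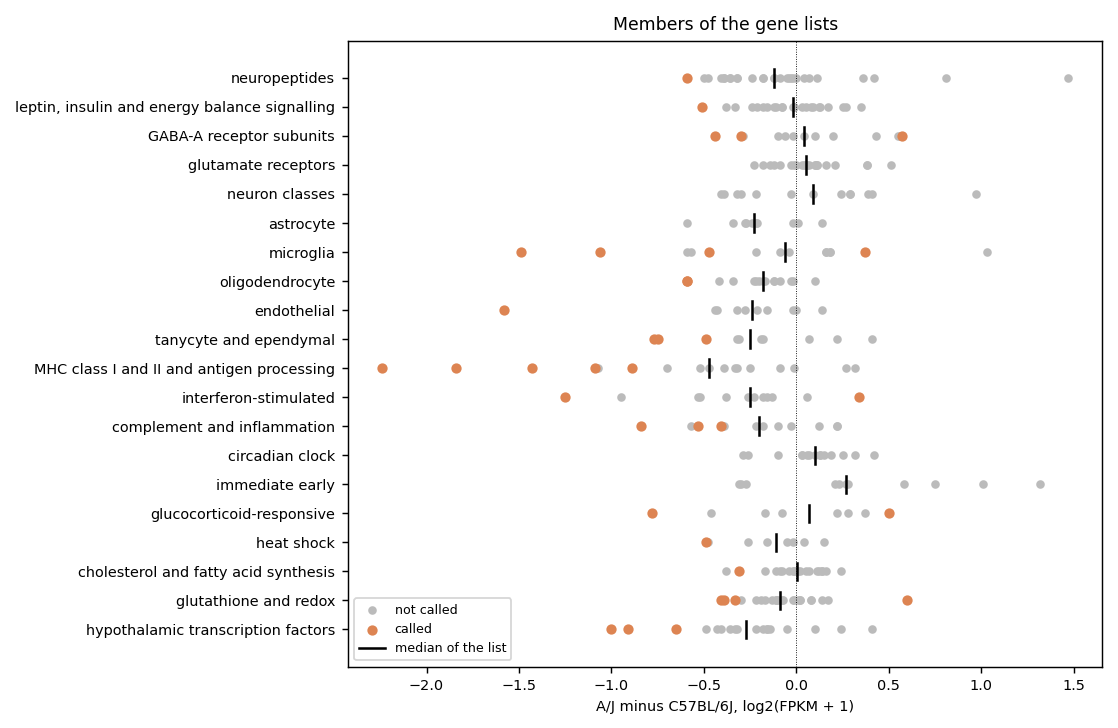
Difference of A/J minus C57BL/6J on log2(FPKM + 1) for each measured locus of 20 gene lists, with called loci in orange, other loci in grey and the median of each list as a bar. Of the lists drawn the MHC list has the lowest median, -0.47, and the calls of most lists lie to the left of 0.

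In blood, Hba-a2, an alpha globin gene, was at 0, 0.272 and 0 FPKM in A/J and at 6.27, 4.94 and 4.53 in C57BL/6J (-2.52 ± 0.37, adjusted p = 1.56e-08), and its near-identical copy Hba-a1 was at 23.8, 22.5 and 23.3 against 20.1, 14.6 and 17.3. With both summed the difference was 0.05 (adjusted p = 0.970). Hba-a1 alone differed by 0.41 (adjusted p = 0.633), and with the marker levels as covariates it was called higher in A/J, by 1.32 (adjusted p = 1.14e-07). Hba-a1 and Hba-a2 are both part of the blood level among these covariates, so no conclusion is drawn from that call. The 4 measured genes of the Y chromosome list gave 0 calls, with Ddx3y at 17.9 to 19.4 against 16.3 to 17.9 FPKM and Eif2s3y at 18.5 to 25.4 against 19.99 to 21.7.

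At the level of transcripts, 1.84% of 51024 rows were called, 0.782% higher and 1.06% (542 rows) lower in A/J. They belong to 761 genes, of which 381 were not called as genes, and 62 genes had transcripts called in both directions. The transcript FPKM are Cufflinks estimates that divide the reads of a gene among its isoforms. Agt, angiotensinogen, the precursor of angiotensin made by astrocytes, was the clearest case without a near-identical copy. An unannotated isoform of 5 exons, TCONS_00345614, was at 81.4, 65.3 and 65.7 FPKM in A/J and at 1.26, 0.000344 and 0.711 in C57BL/6J, whereas the annotated isoform TCONS_00345622 was at 4.82, 16.3 and 1.61 against 131.9, 108.2 and 118.6. Both end at the same coordinate of chromosome 8, and the annotated isoform reaches chr8:124556534-124569706 while the other spans chr8:124556534-124564928. The gene as a whole was at 90.5, 92.5 and 78.3 against 141, 112 and 124 FPKM (-0.52 ± 0.14, adjusted p = 0.00417), and 11 of the 18 AXB and BXA strains lay nearer to A/J for both isoforms.

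In Gapdh and Tuba1a the isoforms were called in opposite directions and the gene was not called. Gapdh, the glycolytic dehydrogenase, was at 525 to 578 FPKM in A/J and 566 to 578 in C57BL/6J (-0.03 ± 0.14, adjusted p = 0.937), with TCONS_00297986 at 55.5, 22.5 and 52.8 against at most 3.07e-05 and TCONS_00297985 at 0.848, 0 and 0.667 against 267.1, 312.8 and 208.9. Tuba1a was at 352 to 431 against 390 to 412 FPKM, with TCONS_00125428 at 67.7, 84.6 and 161 against at most 0.898 and TCONS_00125427 at most at 0.237 against 72.2, 102 and 114. Both genes have near-identical copies among the measured loci. Gas5, a host of small nucleolar RNAs, B230219D22Rik and Tbcb, a tubulin folding cofactor, had pairs of isoforms with differences of 3.49 and -4.30, of 3.53 and -3.42, and of 3.18 and -3.34, and none of these 3 genes was called as a gene.

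Loci that the assembly leaves without a symbol were called as well, 255 in all. XLOC_027629, a locus of chromosome 5 (chr5:3021050-3236958), was at 168, 189 and 161 FPKM in A/J and at 5.197, 0.712 and 0 in C57BL/6J (6.3 ± 0.41, adjusted p = 3.07e-32). XLOC_024187 and XLOC_000253 match the processed pseudogenes Gm11942, a copy of Rplp1, and Eif4a-ps4, a copy of the translation initiation factor gene Eif4a1, in M21, and were at 25.5 to 30.1 against 0 to 0.298 FPKM and at 52.2 to 60.9 against 1.398 to 2.298. In the other direction, XLOC_010790, which has no coordinates in the assembly, was at 0.159 to 0.595 against 7.52 to 9.06 FPKM, XLOC_003253 on chromosome 10 at 0 to 0.108 against 4.16 to 5.35, and XLOC_002319 on chromosome 1 at 0 against 2.13 to 5.65.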

How the data were processed

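RNA of the hypothalamus was sequenced by the authors from male mice of the HMDP on a high fat, high sugar diet. The values analysed are gene and transcript FPKM. As the study's methods and the submitters' processing notes state, the authors used STAR 2.3.1 for alignment (mm10), Cufflinks 2.2.0 for assembly, Cuffmerge with a GENCODE annotation for a common set, and Cuffquant with Cuffnorm 2.2.1 for the deposited FPKM, from which rows were filtered. The FPKM hold no read counts, and low values showed no steps of whole reads. The reads behind a value could therefore not be taken from them, and no counting interval is given. The paper reports an average number of reads per sample and mapping counts for each sample, which were not used here. Strains were taken from the labels, and 1 of the 282 mice, which carries 2 strain labels, was left out. Values were taken as log2(FPKM + 1), with a pseudocount of 1, and the A/J minus C57BL/6J contrast was tested by limma 3.58.1 in R 4.3.3 over the 281 labelled mice of 99 strains (182 residual degrees of freedom), with Benjamini-Hochberg adjustment at 0.05. The mice of a strain are biological replicates by the design text, and an exact permutation test of 3 against 3 mice cannot go below p = 0.1. The fit was tested on simulated data. Gene names came from the merged assembly, in which 1555 gene rows are absent, and near-identical copies from blastn 2.17.0 of GENCODE M21 transcripts, which 12185 loci have.

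Genes were named by a rule: the 15 highest and 15 lowest differences among called genes with 1 symbol and without overlap, the first 2 and up to 6 called members of each list, the whole list of strain variant loci, 3 loci without a symbol per direction, and 6 genes with transcripts called both ways. C1qa, H2-Aa, H2-Ab1, H2-Q4, Hcrt, Pmch and Pomc, the parent genes of the copies and the genes in which 1 parent stood apart were chosen after their values were seen. The members and lists were chosen with earlier results of these data known. Alternatives were a pseudocount of 0.1, a mean FPKM of at least 1, the 6 mice alone, quantile normalization, a variance trend, marker levels as covariates, a library with an outlying FPKM sum left out, the mouse with 2 labels added, each of the 6 mice left out, and, chosen after seeing the data, near-identical copies summed. A few genes that the rule names are not reported here.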

Additional observations from a re-analysis of the deposited data

How the results depend on the processing

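Counts of called genes stayed within 1.5 times of 432 higher and 696 lower under each alternative run. Transcript counts did so except in the 6 mice alone, where 148 were higher and 141 lower. Of the called genes, 515 were called without each of the 6 mice in turn and 647 in the 6 mice alone. On single loci, XLOC_009345 was the 1 called gene whose difference changed sign under an alternative. No paired analysis was possible because the labels give the mice no replicate numbers that are shared between strains. Genes under the mean FPKM minimum have no value under that alternative. Of the named genes, those called in the 6 mice alone but not in the fit to all strains were Gfap (limma adjusted p = 0.0169), H2-D1 (0.0308), Hbb-bt (0.0320), Tcf7l2 (0.0396), Gh (5.76e-04) and Prl (0.00126). Prl was called with a pseudocount of 0.1 (0.0393), Gfap without 1 library of another strain with an outlying FPKM sum (0.0458), Fos without C57BL/6J replicate 3 (0.0226) and Hba-a1 with the marker levels as covariates (1.14e-07). Hba-a1 is itself part of the blood marker level. The cause of the changes was not tested.

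With near-identical copies summed, an alternative chosen after seeing the data, the difference turned for Rps3a3 and Rps3a2 (-0.49), Gm5506 (-0.91), Tuba1c (-0.04), Gm6472 and Gm1840 (-0.08), AK157302 (-0.33), Gm9825 (-0.75), Gm5499 (-0.11), XLOC_024187 (-0.93), Hba-a2 (0.05) and Hspa1a (-0.03).

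The other named genes whose differences turned were not called. With the marker levels as covariates they were Insr (-0.01), Gria2 (-0.05), Slc17a6 (-0.11), Mbp (0.05), Vim (0.03), Ahr (-0.0026), Clock (-0.02), the locus of 1110038B12Rik and Hspa1b (0.08), Gsta4 (0.07), Ttr (0.55), Prkcd (-0.32) and Hbb-bs, then called (0.63, limma adjusted p = 8.04e-04). Ttr, Prkcd and Hbb-bs are themselves among the markers, so their values in that fit are not independent of the covariates. After quantile normalization they were Lepr (0.01), Mbp (0.30) and Cs (0.06). With 1 mouse left out in turn, the differences ranged across 0 for the locus of Agrp and Atp6v0d1 (-0.0025 to 0.08), Npy (-0.01 to 0.30), Lepr (-0.23 to 0.09), Mbp (-0.08 to 0.04), Ahr (-0.05 to 0.23), Cs (-0.04 to 0.03), the locus of Hspa1b (-0.18 to 0.03), Prkcd (-0.04 to 0.52) and Eif2s3y (-0.0015 to 0.21).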

Other observations

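Called genes lay on each chromosome of the assembly that was counted. The share of genes called was highest on chromosome 17, where 62 of 566 genes (10.9%) were called, 22 higher and 40 lower in A/J, and on chromosome 1, where 73 of 722 (10.1%) were. It was lowest on the X chromosome, with 23 of 445 genes (5.17%), and on chromosome 10, with 32 of 615. More genes were called lower than higher on chromosome 19, with 28 against 6, whereas chromosome 18 had 14 higher and 8 lower. These shares carry no test, since neighbouring genes are not independent.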
